A study of Mus musculus with 6 samples.

Results

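Glycolysis and the response to low oxygen were followed through 36 genes: the glucose and lactate transporters, the glycolytic enzymes with their isoforms, the genes of oxygen sensing, and further targets of hypoxia-inducible factor (HIF). They were chosen by symbol from the deposited expression table, which held all 36 among 24493 genes. The study sorted mouse pancreatic tumor cells out of subcutaneous tumors grown in C57BL/6 mice and measured their RNA by sequencing. GAFCP, the treated group, had 2 libraries from tumors given gemcitabine, abraxane, a CD40 agonist and blockade of both PD-1 and CTLA-4. Gemcitabine is a nucleoside analog and abraxane is albumin-bound paclitaxel, both chemotherapy drugs, while the other agents act on immune cells. The control group had 4 libraries from tumors without this combination. Both groups shared the tumor cell line, the mouse strain, the implantation site and the sort. All sample titles carry the same tumor line name, and the labels give neither the age of the mice, the time of treatment, the gate of the sort, nor whether libraries came from separate animals. The p-values below therefore measure library-to-library spread only, and this spread may be technical.

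Glycolysis turns glucose into pyruvate. Glucose enters through facilitative transporters, hexokinase traps it as glucose-6-phosphate, phosphofructokinase commits it to the pathway, and lactate dehydrogenase can turn the pyruvate into lactate, which monocarboxylate transporters carry out of the cell. When oxygen is plentiful, prolyl hydroxylases mark HIF-1alpha, the protein of Hif1a, for destruction. When oxygen is short the protein persists, binds DNA at short hypoxia response elements and switches on many genes of glycolysis, blood vessel growth and matrix building. HIF-1alpha is regulated largely at the level of the protein, which RNA sequencing does not measure. Pancreatic ductal tumors are known for dense stroma, poor blood supply and high glucose use.

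Values are in TPM, a transcript abundance that is scaled for transcript length and sums to 1000000 in each library, so that levels can be compared between genes. Changes are differences of mean log2(TPM + 1), GAFCP minus control, tested with limma over the 13720 genes that reached 1 TPM in at least 2 libraries, and a gene was called at a Benjamini-Hochberg adjusted p under 0.05. All 36 members passed this filter on low values, Slc2a3 through the GAFCP libraries alone, so that it had to differ and its call adds no support to the counts. Much of the transcriptome differed between the groups: 47.5% of all tested genes were called, 19.0% higher and 28.5% lower, and the median log2 change was -0.067. With median-of-ratios scaling the split of all calls was 3449 higher and 3425 lower, against 2606 and 3909 here.

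The sorted cells carried epithelial markers and markers of other cells. Summed TPM of 8 epithelial markers was 5104 and 5134 in the GAFCP libraries and 6696 to 7073 in controls, with 5 called lower, 1 higher and 2 that did not pass. The keratin gene Krt8, a marker of glandular epithelium, stood at 1548 and 1541 TPM with GAFCP, against 2265 to 2401 TPM in controls. The sum of 15 macrophage and monocyte markers was 6238 and 6168 TPM with GAFCP, against 1581 to 1689 TPM in controls, and all 15 were called higher. Sums of 10 pan-leukocyte markers were 322.7 and 332 TPM with GAFCP, against 109.8 to 128 TPM in controls, again with all 10 called higher. Those of 11 fibroblast and pericyte markers were 343 and 344 TPM with GAFCP, against 205 to 225 TPM in controls, with 7 of 10 tested called higher and 1, the pericyte marker Rgs5, lower. Endothelial markers summed to 6.89 and 7.31 TPM with GAFCP and 6.51 to 7.59 TPM in controls. Of 3 tested, Pecam1 was called higher and Cldn5 lower. T and NK cell markers summed to 40.3 and 35.7 TPM with GAFCP, against 6.52 to 9.19 TPM in controls, with 8 of 9 tested called higher. Neutrophil markers summed to 111 and 120.1 TPM with GAFCP, against 36.5 to 41.9 TPM in controls. Of 7 tested, 5 were called higher and 2, among them Mmp9, did not pass. Most of the neutrophil sum came from S100a8 and S100a9, with means of 56.6 and 30.9 TPM with GAFCP, against 13.2 and 7.70 TPM in controls. None of the leukocyte, macrophage or fibroblast markers was at 0 in every library. Their part in the changes described here was not tested, and in such bulk libraries more cells of a type cannot be told apart from more RNA per cell.

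Of the 36 members 24 were higher with GAFCP, 3 were lower and 9 did not pass. The background shares of 19.0% higher and 28.5% lower (47.5% in either direction) apply to these counts and to the counts by role below. The median log2 change of the members was 0.30. Both GAFCP libraries lay above every control library for 26 members, where 24.7% of all tested genes did so, and below every control for 8, where 36.9% of all tested genes did so. Only Pfkl and Ldhb overlapped between the groups. The changes were uneven. Adm, Hk2 and Slc2a3 were the 3 members whose mean TPM was at least 2-fold higher with GAFCP, and 10 members reached 1.5-fold. The 8 most abundant members, each above 600 TPM in controls, made up 85.6% of the members' summed control TPM and differed by 1.04-fold to 1.27-fold only.

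**Figure D1:**
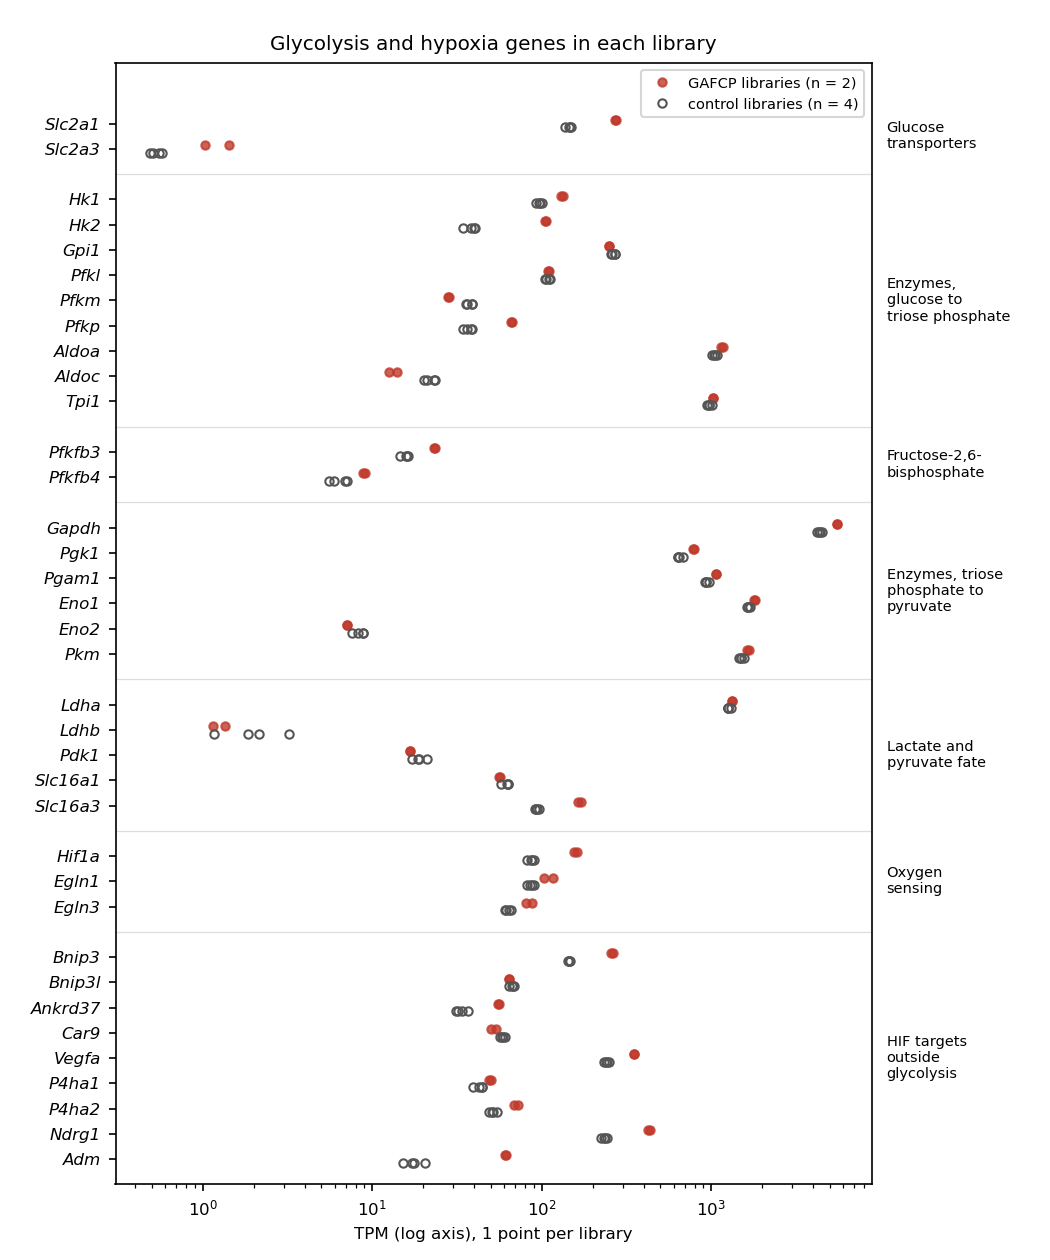
TPM (log axis) of each gene in every library, ordered by role from top to bottom, with filled points for the 2 GAFCP libraries and open points for the 4 control libraries. Levels run from about 0.5 TPM for Slc2a3 in controls to 5539 TPM for Gapdh with GAFCP, and the points of a group lie close together for nearly every gene.

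Of the glucose transporter genes, the abundant Slc2a1 was higher. Slc2a1, which encodes the widely expressed transporter GLUT1 (chromosome 4, 119108745 to 119137330, mm10), had 272 and 274 TPM in the GAFCP libraries, against 144, 149, 138 and 146 TPM in the controls. The groups did not overlap, and the log2 change was 0.91 ± 0.04 (SE; limma adjusted p = 1.24e-06). Slc2a3, which encodes the high-affinity transporter GLUT3, was scarce: 1.03 and 1.43 TPM with GAFCP, against 0.488, 0.579, 0.508 and 0.554 TPM in controls. Its log2 change of 0.54 ± 0.14 (SE) passed the test (adjusted p = 0.0173), but not with the library number as a replicate block (adjusted p = 0.0742). Slc2a1 supplied 99.6% and 99.5% of the summed TPM of the pair in the GAFCP libraries.

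Among the enzymes that take glucose to triose phosphate, 4 of 9 were higher, 2 lower and 3 did not pass. For all tested genes the shares were 19.0% higher and 28.5% lower. The direction depended on the isoform. Hk2, the inducible hexokinase (chromosome 6, 82725025 to 82774454), had 104.1 and 105.6 TPM with GAFCP, against 39.9, 40.7, 34.5 and 38.4 TPM in controls. This was a log2 change of 1.43 ± 0.07 (SE; adjusted p = 1.91e-06), with the GAFCP libraries far above all controls. Hk1, the hexokinase found in most tissues, had 131 and 133 TPM with GAFCP, against 97.4, 100.4, 92.6 and 96.3 TPM in controls (log2 change 0.45 ± 0.04, SE; adjusted p = 9.06e-05). Hk1 and Hk2 together were thus higher, with a summed 235 and 239 TPM in GAFCP libraries and 127 to 141 TPM in control libraries.

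The next enzyme, Gpi1, which converts glucose-6-phosphate to fructose-6-phosphate, had 249.4 and 248.8 TPM with GAFCP, against 259, 272, 258 and 271 TPM in controls. It lay just below the controls and did not pass (log2 change -0.089 ± 0.036, SE; adjusted p = 0.0772). Gpi1 was called lower in 4 alternatives: quantile normalization (adjusted p = 0.00173), rescaling without the 50 most abundant genes (0.00590), library weights (0.0215) and without control library 3 (0.0372), within a range of 0.00173 to 0.562. The phosphofructokinase isoforms moved apart. Pfkp, the platelet-type isoform (chromosome 13, 6579874 to 6649060), had 65.7 and 66.6 TPM with GAFCP, against 38.7, 38.4, 34.5 and 36.1 TPM in controls (log2 change 0.83 ± 0.06, SE; adjusted p = 1.63e-05). Pfkm, the muscle-type isoform, fell to 27.9 and 28.3 TPM with GAFCP, against 38.8, 38.8, 36.4 and 36.03 TPM in controls (log2 change -0.40 ± 0.05, SE; adjusted p = 4.73e-04). For Pfkl, the liver-type isoform and the most abundant of these, the groups overlapped at 109.0 and 111 TPM with GAFCP and 105 to 112 TPM in controls. The summed phosphofructokinase TPM was 203 and 206 with GAFCP and 176 to 188 in controls.

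Aldolase and triose-phosphate isomerase differed little in total. Aldoa, the main aldolase, had 1148 and 1174 TPM with GAFCP, against 1015, 1077, 1049 and 1043 TPM in controls (log2 change 0.15 ± 0.03, SE; adjusted p = 0.00593). This call was lost without GAFCP library 2 (adjusted p = 0.0701) and with quantile normalization (adjusted p = 0.112), and its adjusted p ranged between 0.00213 and 0.112 over the alternatives. Aldoc, the brain-type isoform, fell to 14.0 and 12.7 TPM with GAFCP, against 23.1, 23.6, 21.1 and 20.1 TPM in controls (log2 change -0.68 ± 0.08, SE; adjusted p = 3.22e-04), the largest decrease on the log2(TPM + 1) scale among the members. Tpi1, which interconverts the triose phosphates, had 1019 and 1019.9 TPM with GAFCP, against 947 to 1008 TPM in controls, and did not pass (adjusted p = 0.137). It was called higher with median-of-ratios scaling (adjusted p = 0.0335), while its sign turned with quantile normalization.

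Both members that set the level of fructose-2,6-bisphosphate, a strong activator of phosphofructokinase, were higher, but an isoform outside the members was lower. That isoform, Pfkfb2, had 6.40 and 6.36 TPM with GAFCP, against 8.89 to 10.2 TPM in controls. Its log2 change was -0.49 ± 0.08 (SE; limma adjusted p = 0.00134). A further isoform, Pfkfb1, did not pass (adjusted p = 0.499). Pfkfb3, whose enzyme favors making this activator, had 23.3 and 23.4 TPM with GAFCP, against 16.3, 15.7, 14.5 and 16.0 TPM in controls (log2 change 0.55 ± 0.06, SE; adjusted p = 2.36e-04). Pfkfb4, a related HIF-inducible enzyme, had 8.78 and 9.13 TPM with GAFCP, against 5.96, 7.09, 5.53 and 6.92 TPM in controls (log2 change 0.44 ± 0.10, SE; adjusted p = 0.0104). Although the groups were separate for Pfkfb4, its call was lost without GAFCP library 1 (adjusted p = 0.0516) or GAFCP library 2 (adjusted p = 0.0736), within a range of 0.00239 to 0.0736 over the alternatives.

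Of the 6 enzymes from triose phosphate to pyruvate 5 were higher by small amounts, while Eno2 lay below the controls and did not pass. The share called higher over all tested genes was 19.0%. Gapdh, often used as a reference gene (chromosome 6, 125161852 to 125166467), had 5497 and 5539 TPM with GAFCP, against 4197, 4483, 4410 and 4327 TPM in controls. Its log2 change was 0.34 ± 0.03 (SE; adjusted p = 8.67e-05), and it ranked 17 by mean level in the whole table. Pgk1, the first ATP-forming enzyme of the pathway, had 780.2 and 789 TPM with GAFCP, against 642, 686, 643 and 640.4 TPM in controls (log2 change 0.27 ± 0.04, SE; adjusted p = 6.88e-04). Pgam1, the mutase that follows, had 1066 and 1070.4 TPM with GAFCP, against 925 to 977 TPM in controls (log2 change 0.18 ± 0.03, SE; adjusted p = 0.00219). For each of these 3 genes the GAFCP libraries lay above all controls.

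Eno1, the widely expressed enolase, had 1800.4 and 1815 TPM with GAFCP, against 1624, 1689, 1645 and 1659 TPM in controls (log2 change 0.13 ± 0.03, SE; adjusted p = 0.00615). Pkm, which encodes both splice forms of the pyruvate kinase of most non-liver tissues, had 1634 and 1662 TPM with GAFCP, against 1501, 1552, 1452 and 1503 TPM in controls (log2 change 0.13 ± 0.03, SE; adjusted p = 0.0113). The gene table does not separate the splice forms PKM1 and PKM2. Both small rises were lost without either GAFCP library: the adjusted p was 0.0520 without library 1 and 0.0678 without library 2 for Eno1, and 0.0585 and 0.101 for Pkm. Over all alternatives the adjusted p ranged between 9.16e-04 and 0.0842 for Eno1 and between 0.00190 and 0.101 for Pkm. Eno2, the neuronal enolase and a HIF target, was at 7.09 and 7.12 TPM with GAFCP, against 7.59 to 8.82 TPM in controls (adjusted p = 0.0672). Eno2 was called lower with library weights (adjusted p = 0.0329) and without control library 2 (adjusted p = 0.0408). Abundant genes of this kind have many processed pseudogenes in the mouse genome, and how the authors' quantification divided reads among such copies was not examined. Of the copies that were looked up by name, Eno1b averaged 1.39 TPM with GAFCP and 1.28 TPM in controls. Hk1os, an antisense transcript of Hk1, was at 2.22 and 3.10 TPM with GAFCP, against 4.73 to 8.59 TPM in controls (log2 change -0.95 ± 0.20, SE; adjusted p = 0.00650), and its call was lost without GAFCP library 1 (adjusted p = 0.0598). Whether strand was used is not stated, so reads of Hk1 and Hk1os may not be told apart.

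**Figure D2:**
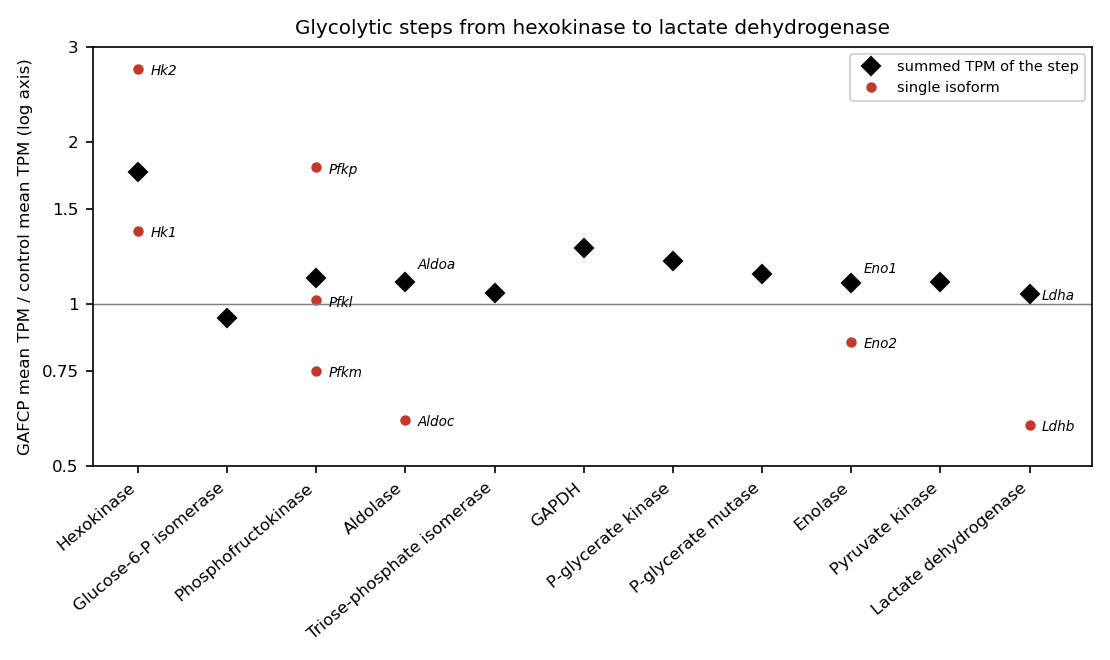
Ratio of GAFCP mean TPM to control mean TPM (log axis) for each glycolytic step in pathway order. Diamonds give the summed TPM of a step's members and circles single isoforms where a step has several. Hexokinase stands highest at 1.75, the other steps lie between 0.94 and 1.27, and the isoforms of phosphofructokinase, aldolase, enolase and lactate dehydrogenase fall on either side of their sums. The circles of Aldoa, Eno1 and Ldha lie beneath the diamonds of their steps.

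At the end of the pathway 1 of 5 genes, the lactate exporter gene Slc16a3, was higher and the other 4 did not pass. This count is close to the 19.0% of all tested genes that were called higher. Ldha, the main subunit of lactate dehydrogenase in these cells, had 1333 and 1325 TPM with GAFCP, against 1264, 1318, 1265 and 1252 TPM in controls. It lay narrowly above the controls and did not pass (log2 change 0.060 ± 0.030, SE; adjusted p = 0.142). Ldha was called higher in 3 alternatives: median-of-ratios scaling (adjusted p = 0.0350), without control library 2 (0.0486) and control libraries 3 and 4 alone (0.0463). The heart-type subunit gene Ldhb was near the detection limit at 1.35 and 1.15 TPM with GAFCP and 1.16 to 3.22 TPM in controls, with overlapping groups. Ldhb was called lower without control library 4 (adjusted p = 0.0430) and with control libraries 1 and 2 alone (adjusted p = 0.0290). Slc16a3, which encodes the exporter MCT4, had 170.5 and 164 TPM with GAFCP, against 91.8, 96.6, 94.0 and 92.2 TPM in controls (log2 change 0.83 ± 0.04, SE; adjusted p = 1.88e-06).

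Slc16a1, which encodes MCT1, a transporter that can also import lactate, had 56.0 and 57.2 TPM with GAFCP, against 63.1, 63.2, 57.3 and 62.6 TPM in controls (adjusted p = 0.0972). Control library 3 lay close to the GAFCP libraries. Without it Slc16a1 passed as lower (log2 change -0.15, adjusted p = 0.00705), 1 of 6 alternatives in which it did so. Control libraries 1 and 2 alone gave an adjusted p of 0.0211 and library weights 0.0130. With all libraries kept, Slc16a1 also passed with rescaling without the 50 most abundant genes (0.0208), quantile normalization (0.0419) and the replicate block (0.0464). Over the alternatives its adjusted p ranged between 0.00705 and 0.337. Pdk1, a kinase that holds pyruvate back from mitochondria and a textbook HIF target, was at 16.78 and 16.79 TPM with GAFCP, against 18.9, 21.0, 17.2 and 18.5 TPM in controls, and did not pass (adjusted p = 0.134). Pdk1 was called lower in 4 alternatives, among them leaving out control library 3 (adjusted p = 0.0412), within a range of 0.0410 to 0.447.

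The 3 genes of oxygen sensing were all higher, where 19.0% of all tested genes were called higher. Hif1a (chromosome 12, 73901324 to 73947554) had 155 and 163 TPM with GAFCP, against 86.6, 90.3, 82.0 and 88.0 TPM in controls, a log2 change of 0.87 ± 0.05 (SE; adjusted p = 4.65e-06). Egln1, which encodes PHD2, the main prolyl hydroxylase of HIF-1alpha, had 116 and 103 TPM with GAFCP, against 85.3, 87.9, 81.8 and 90.6 TPM in controls (log2 change 0.34 ± 0.06, SE; adjusted p = 0.00259). Egln3, which encodes PHD3 and is itself HIF-inducible, had 87.2 and 81.3 TPM with GAFCP, against 60.9, 66.1, 61.6 and 64.5 TPM in controls (log2 change 0.41 ± 0.05, SE; adjusted p = 4.16e-04). No library of one group reached the other for any of these genes.

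HIF targets outside glycolysis had 7 of 9 genes higher, 1 lower and 1 that did not pass, where 19.0% and 28.5% of all tested genes were called. Adm, the vasodilator peptide adrenomedullin (chromosome 7, 110627657 to 110629820), had 61.3 and 60.4 TPM with GAFCP, against 17.6, 20.5, 15.2 and 17.3 TPM in controls. Its log2 change of 1.74 ± 0.10 (SE; adjusted p = 6.06e-06) was the largest of all members. Ndrg1, a stress-induced gene of differentiation, had 426 and 433 TPM with GAFCP, against 234, 245, 224 and 237 TPM in controls (log2 change 0.87 ± 0.04, SE; adjusted p = 1.77e-06). Bnip3, a receptor for the removal of mitochondria by autophagy, had 264 and 257 TPM with GAFCP, against 147, 145, 143 and 145 TPM in controls (log2 change 0.84 ± 0.03, SE; adjusted p = 6.77e-07). Its relative Bnip3l, which serves the same process, had 64.3 and 64.3 TPM with GAFCP, against 67.3, 68.8, 64.4 and 66.6 TPM in controls and did not pass (adjusted p = 0.322).

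Vegfa, the main growth factor of blood vessels, had 352.9 and 352.3 TPM with GAFCP, against 239, 250.3, 232 and 242 TPM in controls (log2 change 0.55 ± 0.04, SE; adjusted p = 1.44e-05). Ankrd37, an ankyrin-repeat gene known as a HIF target, had 56.2 and 55.1 TPM with GAFCP, against 33.9, 36.6, 31.1 and 32.2 TPM in controls (log2 change 0.72 ± 0.07, SE; adjusted p = 8.79e-05). Both were clear of every control. The collagen prolyl hydroxylase gene P4ha2 had 72.3 and 68.3 TPM with GAFCP, against 48.9 to 54.3 TPM in controls (log2 change 0.45 ± 0.05, SE; adjusted p = 2.98e-04). For its isoform P4ha1 the levels were 49.1 and 50.3 TPM with GAFCP and 39.5 to 44.5 TPM in controls (log2 change 0.22 ± 0.06, SE; adjusted p = 0.0167). The P4ha1 call was lost without GAFCP library 1 (adjusted p = 0.0711) or GAFCP library 2 (adjusted p = 0.112), with a range of 5.18e-04 to 0.112 over the alternatives.

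Car9, the membrane carbonic anhydrase often used as a tissue marker of hypoxia (chromosome 4, 43507026 to 43513729), went the other way. It had 50.01 and 54.1 TPM with GAFCP, against 59.4, 58.7, 56.6 and 60.9 TPM in controls (log2 change -0.18 ± 0.05, SE; adjusted p = 0.0215). The groups were separate, but the call rested on single libraries and on the scaling. It was lost without GAFCP library 1 (adjusted p = 0.204) and on leaving out control library 4 (adjusted p = 0.0588). Median-of-ratios scaling gave an adjusted p of 0.0652, control libraries 3 and 4 alone gave 0.0754, and the value ranged between 0.00605 and 0.204 over the alternatives.

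**Figure D3:**
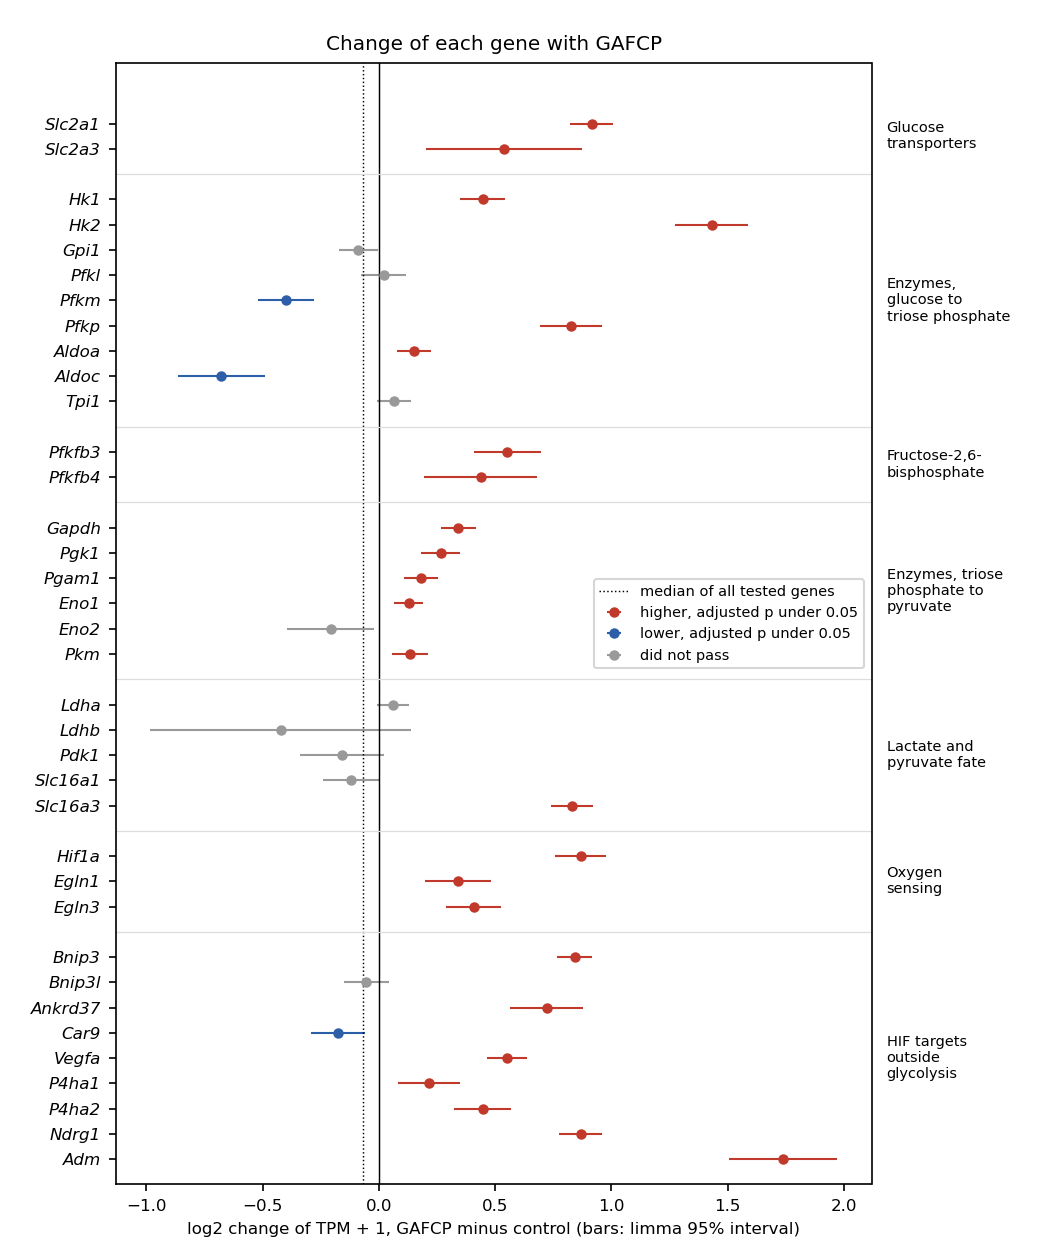
Log2 change of TPM + 1 for each gene, GAFCP minus control, with the 95% interval of limma as bars, red for higher, blue for lower and grey for genes that did not pass. Adm (1.74) and Hk2 (1.43) stand furthest to the right, and Aldoc (-0.68), Pfkm (-0.40) and Car9 (-0.18) are the called genes on the left of 0.

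The DNA just upstream of the transcription start was read for letters of the hypoxia response element. The motif was ACGTG or GCGTG on either strand, so that CACGT and CACGC count as matches on the other strand and a CACGTG run counts on both, and the window was the 250 bases before each RefSeq start on GRCm38.p6, the build also called mm10. Windows were listed for 33 of the 36 members. At least 1 match was found for 30 of these 33 genes (90.9%), against 59.7% of 10402 tested genes that had a window, where genes with several starts have several windows. All 22 members with a window that were higher held a match in at least 1 window, as did all 3 that were lower and 5 of the 8 that did not pass. Counted by window, 38 of 47 member windows (80.9%) held a match, against 38.6% of 32851 windows of all genes, tested or not. The higher members Vegfa, Pkm, Hk1 and Aldoa each also had a listed start without a match, in each case the most upstream start listed. For Vegfa the only window with matches (chr17:46025164-46025413) lay inside the gene. The window directly before the 5′ end of Vegfa (chr17:46032378-46032627) held none. A match is only a run of letters, and binding was not measured. The following windows, 5′ to 3′ on the strand of the gene with matches in capitals, belong to 3 genes that rose with GAFCP, Adm with 2 matches, Bnip3 with 5 and Ankrd37 with 4.
Adm (chr7:110627407-110627656, plus strand): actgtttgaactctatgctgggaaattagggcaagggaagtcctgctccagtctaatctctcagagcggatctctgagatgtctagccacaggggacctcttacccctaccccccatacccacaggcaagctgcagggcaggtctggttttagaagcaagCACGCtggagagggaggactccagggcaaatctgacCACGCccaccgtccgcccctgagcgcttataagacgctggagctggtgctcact
Bnip3 (chr7:138909507-138909756, minus strand): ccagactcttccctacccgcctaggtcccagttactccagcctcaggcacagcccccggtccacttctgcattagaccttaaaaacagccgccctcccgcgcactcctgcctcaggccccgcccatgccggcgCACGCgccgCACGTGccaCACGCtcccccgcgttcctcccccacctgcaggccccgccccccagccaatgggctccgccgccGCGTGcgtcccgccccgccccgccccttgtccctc
Ankrd37 (chr8:45999851-46000100, minus strand): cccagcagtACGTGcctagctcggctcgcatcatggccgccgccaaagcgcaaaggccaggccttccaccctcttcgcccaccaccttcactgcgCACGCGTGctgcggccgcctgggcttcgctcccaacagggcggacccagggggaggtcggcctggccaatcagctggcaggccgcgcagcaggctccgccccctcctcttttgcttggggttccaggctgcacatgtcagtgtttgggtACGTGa

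For comparison, the windows below belong to 3 genes that were not called higher in the main fit. They are Car9 with 1 match 18 bases before its start, the first listed start of Ldha with 5, and Slc16a1 with 4.
Car9 (chr4:43506776-43507025, plus strand): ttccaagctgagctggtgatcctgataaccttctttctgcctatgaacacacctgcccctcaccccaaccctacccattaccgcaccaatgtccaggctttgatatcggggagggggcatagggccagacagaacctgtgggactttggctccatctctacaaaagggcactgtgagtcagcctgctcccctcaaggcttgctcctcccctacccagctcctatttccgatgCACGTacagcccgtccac
Ldha (chr7:46845554-46845803, plus strand): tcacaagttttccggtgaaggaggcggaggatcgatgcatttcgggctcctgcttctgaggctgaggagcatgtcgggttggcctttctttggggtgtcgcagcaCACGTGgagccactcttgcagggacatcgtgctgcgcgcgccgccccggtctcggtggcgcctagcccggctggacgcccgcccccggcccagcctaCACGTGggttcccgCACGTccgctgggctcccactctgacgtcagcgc
Slc16a1 (chr3:104638414-104638663, plus strand): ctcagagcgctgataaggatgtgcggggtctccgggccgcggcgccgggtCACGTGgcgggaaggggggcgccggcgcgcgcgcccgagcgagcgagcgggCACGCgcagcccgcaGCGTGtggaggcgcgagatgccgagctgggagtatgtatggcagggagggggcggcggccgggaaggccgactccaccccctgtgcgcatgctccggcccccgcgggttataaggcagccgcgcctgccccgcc
The capitals in the Bnip3 and Ldha windows each mark 5 overlapping or separate matches, while Bnip3 had a log2 change of 0.84 and Ldha one of 0.060.

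Isoform shares within a step do not depend on how libraries are scaled, and several differed between the groups. The sums of a step cover the members only, so that Hk3 and Eno3, for example, are left out. Eno3 averaged 69.5 TPM with GAFCP and 82.3 TPM in controls (limma adjusted p = 0.00855), well above Eno2. Hk2 made up 44.4% and 44.2% of the Hk1 and Hk2 sum with GAFCP, against 29.0%, 28.8%, 27.2% and 28.5% in controls. The difference was 15.9 percentage points. Pfkp supplied 32.4% and 32.3% of phosphofructokinase TPM with GAFCP, against 21.2%, 20.5%, 19.5% and 19.6% in controls. Slc16a3 carried 75.3% and 74.2% of the TPM of the lactate transporter pair with GAFCP, against 59.3%, 60.5%, 62.1% and 59.5% in controls. In all 3 the GAFCP libraries were above every control. Bnip3 took 80.4% and 80.0% of the Bnip3 and Bnip3l sum with GAFCP, against 67.8% to 68.9% in controls, and P4ha2 took 59.6% and 57.6% of its pair with GAFCP, against 53.3% to 55.3% in controls. The minor isoforms Aldoc and Eno2 lost share within their pairs: Aldoc held 1.21% and 1.07% of the Aldoa and Aldoc sum with GAFCP, against 1.89% to 2.22% in controls.

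For 8 of the 12 shares compared, the GAFCP libraries lay wholly on 1 side of the controls and the two-sided exact permutation test gave p = 0.0667 (adjusted p = 0.1 over the 12 shares). This is the smallest p that 2 against 4 libraries allow, so no share could pass a threshold of 0.05. Among these 8, Pfkp and Pfkl are shares of the same sum and are not independent. Shares of Slc2a1, Pfkfb3, Egln3 and Ldha within their pairs overlapped between the groups, with exact p of 0.133, 0.533, 0.267 and 0.267. Egln3 made up 42.8% and 44.1% of the Egln1 and Egln3 sum with GAFCP and 41.6% to 43.0% in controls.

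**Figure D4:**
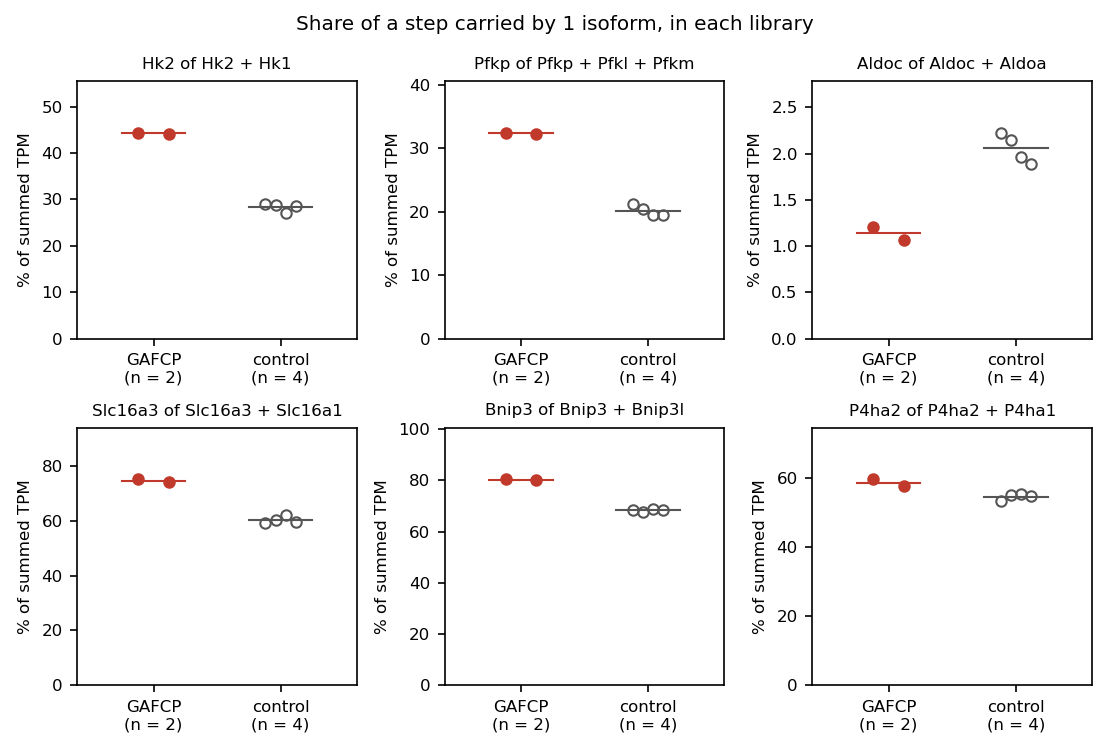
Percent of the summed TPM of a step's members that 1 isoform supplies, with 1 point per library. Points are filled for GAFCP and open for control, and a line marks each group mean. Hk2, Pfkp, Slc16a3, Bnip3 and P4ha2 have higher shares with GAFCP and Aldoc a lower share, with no overlap between the groups.

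Other genes of the same pathways, taken from lists written down by textbook membership, showed which neighbours moved. Like the members, these lists were chosen with earlier results of these data known, so their counts are given as a description. Of 33 tested textbook HIF targets outside the 36 members, 18 were higher and 3 lower (median log2 change 0.20), where 19.0% and 28.5% of all tested genes were called. Hmox1, the heme-degrading oxygenase, had 472 and 478 TPM with GAFCP, against 115 to 125 TPM in controls (log2 change 1.97 ± 0.04, SE; adjusted p = 3.50e-08). Angptl4, a secreted inhibitor of lipoprotein lipase, had 463 and 461 TPM with GAFCP, against 121 to 127 TPM in controls. Ero1l, an oxidase of the endoplasmic reticulum, rose by 0.89 on the log2 scale. Macrophages are known to express Hmox1. Summed macrophage and monocyte markers in the same libraries were 6238 and 6168 TPM with GAFCP, against 1581 to 1689 TPM in controls, and their part in these values was not tested.

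Of 17 other tested genes of oxygen sensing and HIF control 2 were higher, 2 lower and 13 did not pass, where 19.0% and 28.5% of all tested genes were called higher and lower. Cited2, a HIF-induced protein that competes with HIF for its coactivators, rose by 0.46 ± 0.05 (SE; adjusted p = 2.04e-04), while Hif1an, the asparagine hydroxylase that blocks HIF activity, had a log2 change of -0.33 ± 0.08 (SE; adjusted p = 0.0104) that was lost without GAFCP library 1 (adjusted p = 0.0894). Rack1, a ribosomal scaffold that also binds HIF-1alpha, had 1819 and 1897 TPM with GAFCP, against 2082 to 2174 TPM in controls (log2 change -0.18 ± 0.03, SE; adjusted p = 0.00205), where median-of-ratios scaling left an adjusted p of 0.0555. Siah2, a ubiquitin ligase for prolyl hydroxylases, was called narrowly (log2 change 0.32, adjusted p = 0.0474) and was lost on leaving out GAFCP library 2 (log2 change 0.16, adjusted p = 0.367). Leaving out control library 1, 3 or 4 gave adjusted p-values of 0.0796, 0.0765 and 0.0694 for Siah2, within a range of 0.0188 to 0.367 over the alternatives. The HIF-2alpha gene Epas1 averaged 3.53 TPM with GAFCP and 3.22 TPM in controls (adjusted p = 0.537). The von Hippel-Lindau gene Vhl, which encodes the ubiquitin ligase subunit that recognises hydroxylated HIF, averaged 18.3 TPM with GAFCP and 18.1 TPM in controls (adjusted p = 0.876).

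Other isoforms of glycolysis and lactate transport are mostly those of specialised tissues. Of 19 tested genes 3 were higher, 7 lower and 9 did not pass (median log2 change -0.15). Beside this, 19.0% of all tested genes were called higher and 28.5% lower. Pklr, the pyruvate kinase of liver and red cells, fell to 9.82 and 9.21 TPM with GAFCP, against 17.5 to 20.6 TPM in controls (log2 change -0.94 ± 0.08, SE; adjusted p = 4.23e-05). Bpgm, which makes the red cell regulator 2,3-bisphosphoglycerate, changed by -0.53, and the fructose transporter gene Slc2a5 had 0.914 and 0.796 TPM with GAFCP, against 2.63 to 3.04 TPM in controls. Slc2a5, among the 7 called lower, passed the filter on low values through the control libraries alone, so that it had to differ, and the count of 7 is given as a description only. Hk3, a hexokinase of myeloid cells, was among the 3 called higher and had 9.14 and 8.63 TPM with GAFCP, against 2.08, 2.10, 2.29 and 2.10 TPM in controls (log2 change 1.65 ± 0.09, SE; adjusted p = 4.16e-06). Myeloid markers moved with Hk3, the macrophage and monocyte list by a median log2 change of 2.12, and their part in it was not tested.

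Pyruvate enters mitochondria and is burned through pyruvate dehydrogenase and the tricarboxylic acid cycle. Of 14 tested genes of the pyruvate dehydrogenase group 6 were lower and 1 higher (median log2 change -0.23), beside 28.5% lower and 19.0% higher over all tested genes. Pdha1 and Pdhb, subunits of the first enzyme of the complex, had log2 changes of -0.34 and -0.40. Pdhb had 68.2 and 68.0 TPM with GAFCP, against 86.3 to 91.3 TPM in controls. Of 18 tricarboxylic acid cycle genes 11 were lower and 1 higher (median log2 change -0.15), beside the same 28.5% and 19.0%. Idh2, a mitochondrial isocitrate dehydrogenase, had 75.2 and 74.0 TPM with GAFCP, against 105 to 115 TPM in controls (log2 change -0.54 ± 0.05, SE; adjusted p = 5.12e-05), and Sdhc and Fh1, of succinate dehydrogenase and fumarase, changed by -0.44 and -0.42. The count of 11 dropped to 7 with median-of-ratios scaling, without GAFCP library 1 and without GAFCP library 2, and the difference between this list and the members was not tested.

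**Figure D5:**
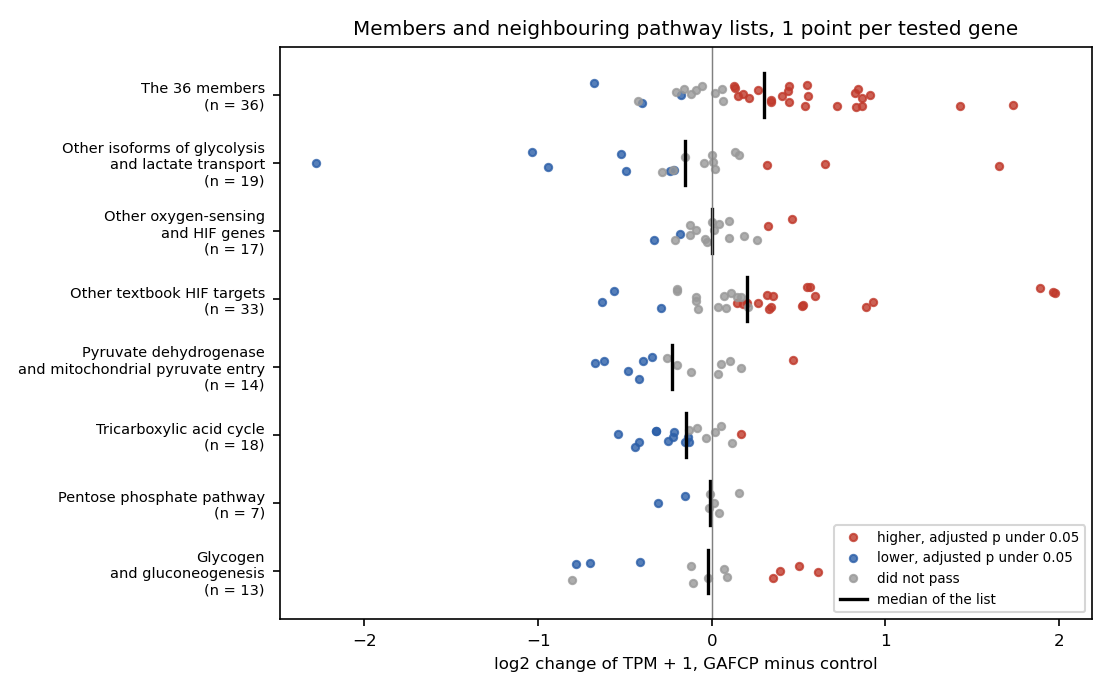
Log2 change of TPM + 1, GAFCP minus control, for every tested gene of the 36 members (top row) and of 7 neighbouring lists, with a black bar at each median. The members (median 0.30) and the other textbook HIF targets (median 0.20) lie mostly right of 0, and the pyruvate dehydrogenase (median -0.23) and tricarboxylic acid cycle (median -0.15) genes mostly left.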

How the data were processed

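RNA from sorted mouse pancreatic tumor cells was sequenced by an outside company, as the labels' protocols state. The deposited table holds TPM of 24493 genes for 6 libraries. Salmon and mm10 are named in the submitters' processing notes, and the sources used here give neither a Salmon version nor the annotation. Sequencing depth cannot be read from TPM, so depth is unknown and no counting error is given.

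Sample titles defined 2 GAFCP and 4 control libraries. The test covered 13720 genes that reached 1 TPM in 2 or more libraries. It used limma 3.58.1 (R 4.3.3) on log2(TPM + 1), a moderated model with trended variance and 4 residual degrees of freedom, with Benjamini-Hochberg adjustment across these genes. Low genes have understated changes on this scale. For isoform shares all 15 arrangements of the libraries were enumerated. Gene positions (36 members) and upstream sequences (33 members) are RefSeq's on GRCm38.p6, matched by symbol.

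The members and lists were chosen with earlier results of these data known. Named genes were the 36 members, up to 4 called genes of each pathway list with the smallest p, and the most abundant markers; 1 gene that this rule names is not reported here. Epas1, Vhl, Eno1b, Eno3, Pfkfb1, Pfkfb2 and Rgs5 were named after their values were seen. Alternatives varied the pseudocount (0.1, 5), filter, scaling, variance model, library weights, threshold and replicate block, and left out libraries.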

Additional observations from a re-analysis of the deposited data

Results flagged for a closer look

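In the control group 48 sets of 4 values were screened for a sample whose gap to its nearest neighbour exceeded Dixon's 95% critical value for 4 values, which chance exceeds in about 1 of 20 groups. This marked 2 genes. Pgk1 was at 686.0 TPM in control library 2, while the other controls lay between 640.4 and 643 TPM. Slc16a1 was at 57.3 TPM in control library 3, while the other controls lay between 62.6 and 63.2 TPM. The GAFCP group, with 2 libraries, could not be screened.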

How the results depend on the processing

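Of the 24 members called higher 18, and of the 3 called lower 2, were called in the same direction under all 19 alternatives other than the stricter threshold; Slc2a3, Aldoa, Pfkfb4, Eno1, Pkm, P4ha1 and Car9 lost the call in at least 1. At an adjusted p under 0.01 the members called higher were 20 and those called lower 2. The number of members called lower became 5 with quantile normalization, 6 with rescaling without the 50 most abundant genes, 7 with library weights and 6 with control libraries 1 and 2 alone. Leaving out 1 library at a time, members called higher ranged between 18 and 25, members called lower between 2 and 6 (6 without control library 3), and all genes called between 4258 (without GAFCP library 1; 4313 without GAFCP library 2) and 7226, against 6515. With the number of the library as a replicate block, 5894 genes were called, with 19 members higher and 3 lower. The numbers are not said to pair libraries, and deviations of same-numbered libraries correlated by -0.0073 and -0.020 across genes. With 2 GAFCP libraries their deviations mirror each other, so these values are not separate checks and do not decide whether libraries were paired. Of changes that did not pass, the sign turned for Bnip3l with median-of-ratios scaling (0.0092), Tpi1 with quantile normalization (-0.040) and Pfkl with rescaling without the 50 most abundant genes (-0.0060). The cause of these shifts was not tested. No isoform share changed direction in the 84 recomputations, which used a log2 ratio or left out 1 library. Where the groups did not overlap, neither change could turn the sign. Only the shares of Slc2a1, Pfkfb3, Egln3 and Ldha, which overlapped, were open to such a change. Depth is unknown, so levels near 1 TPM, as for Slc2a3 and Ldhb, carry an unknown counting error.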

Other observations

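Of 13 tested genes of glycogen metabolism and gluconeogenesis 4 were higher and 3 lower (median log2 change -0.02), where 19.0% and 28.5% of all tested genes were called. Pgm2, a phosphoglucomutase, had 97.8 and 94.3 TPM with GAFCP, against 65.1 to 69.8 TPM in controls (log2 change 0.50 ± 0.04, SE; limma adjusted p = 5.62e-05), and Gys1, the glycogen synthase of most tissues, rose by 0.39. Pygb, the brain-type glycogen phosphorylase, fell to 34.7 and 29.8 TPM with GAFCP, against 50.5 to 55.8 TPM in controls (log2 change -0.70 ± 0.07, SE; adjusted p = 1.05e-04). Pck2, the mitochondrial enzyme that makes phosphoenolpyruvate, had a log2 change of -0.41.

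The pentose phosphate pathway, which makes NADPH and ribose, had 0 of 7 tested genes higher and 2 lower by limma (also 0 higher at an unadjusted p under 0.05), a share lower that is close to the 28.5% of all tested genes. Rpe, an epimerase, had a log2 change of -0.31 and the transketolase gene Tkt one of -0.15. The Tkt call was lost without GAFCP library 1 (adjusted p = 0.0828) or GAFCP library 2 (adjusted p = 0.0540).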
